A study of Mus musculus with 9 samples.

Results

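Glutathione is the most abundant small thiol of animal cells and the reducing partner of many enzymes that remove peroxides. Cells import cystine, join the resulting cysteine to glutamate and then to glycine, spend the tripeptide on peroxides through glutathione peroxidases, and return the oxidized form to the reduced one with NADPH. In the lung, glutathione is also secreted into the fluid that lines the airspaces. The genes described here were chosen by name from this pathway: the cystine transporter gene Slc7a11, the synthesis genes Gclc, Gclm and Gss, the reductase gene Gsr, the peroxidase genes Gpx1, Gpx3, Gpx4 and Gpx8, and Ggt1, whose product starts glutathione breakdown outside the cell. All 10 were among the 25526 names in the table, and all 10 were among the 14540 genes tested.

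The 9 RNA sequencing libraries come from mouse lung tissue, 3 labelled normal, 3 labelled as the pulmonary fibrosis model and 3 labelled PepNzymeSOD-CAT, called nanozyme lung here. PepNzymeSOD-CAT is a peptide nanozyme for inhalation whose name refers to superoxide dismutase and catalase, and the study asked by what mechanism it acts in pulmonary fibrosis. Each library is the lung of 1 mouse. Strain, sex, age, inducing agent, dose, timing and whether the nanozyme mice also carried the fibrosis model are not given in the sources used here. Levels are in FPKM, which scales fragments to transcript length and library size, so that levels can be set side by side between genes. Changes are limma log2 fold changes ± SE on the log2(FPKM + 1) scale. Their p-values were adjusted over all genes tested by the Benjamini-Hochberg method, and a gene passed at an adjusted p under 0.05. This scale understates the change of genes with low values. Group values are means ± SD (n = 3 mice).

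FPKM sums ran from 443746 to 519772 per library, and the read depth behind them is unknown. Markers of alveolar type 2 cells, which make surfactant, were present in all libraries. Nanozyme replicate 2 stood apart from the other nanozyme libraries. It lay within the range of the model libraries at 64.9% of tested genes, against 35.3% and 32.8% for nanozyme replicates 1 and 3. Model replicate 3 stood apart at Gpx1, as described below, and results that rest on either library are given with and without it. Both libraries were singled out from these same values. At genes where nanozyme replicate 2 lay near the model, leaving it out moves the nanozyme mean away from the model and lowers the spread. The p-values of fits without either library are therefore descriptions and not independent tests. Summed neutrophil markers (13 genes) ran from 128 to 417 FPKM in normal lung, from 6492 to 8974 in model lung, and stood at 1421, 6913 and 1857 in nanozyme replicates 1, 2 and 3. The defining neutrophil gene Ly6g was listed at 0 in each normal library. Summed monocyte and recruited macrophage markers (12 genes) ran from 4015 to 4930, from 8168 to 11206 and from 6706 to 11189 FPKM in the normal, model and nanozyme groups, and club cell markers (9 genes) from 72957 to 82255, from 7880 to 19517 and from 21882 to 32333. Summed alveolar type 2 markers (10 genes) ran from 25377 to 32155 FPKM in normal, from 10169 to 14225 in model and from 19322 to 31583 in nanozyme lung. Ciliated cell markers (10 genes) ran from 776 to 1240, from 222 to 470 and from 418 to 526, and red blood cell transcripts (7 genes) from 3528 to 4252, from 173 to 319 and from 131 to 790 in the same order. Fibroblast markers (10 genes) ran from 1913 to 2429, from 642 to 1187 and from 919 to 2590, and endothelial markers (10 genes) from 755 to 871, from 299 to 652 and from 575 to 962. Several sums mostly follow 1 abundant gene and not the whole list. By means these were Lcn2 for neutrophils (4422 FPKM in model lung) and, in normal lung, Lyz2 for monocytes (4140), Scgb1a1 for club cells (63870), Sftpc for type 2 cells (22510) and Inmt for fibroblasts (1597). The spread of the neutrophil sum within normal lung mostly followed Ltf, at 300, 8.01 and 143 FPKM in replicates 1 to 3. Ltf was not higher by means in model lung (150 in normal and 127 in model). In model against normal lung 12 of 13 neutrophil, 11 of 12 monocyte and 2 of 10 alveolar macrophage markers were higher. Lower were 6 of 9 club, 8 of 10 ciliated, 3 of 10 alveolar type 2, 2 of 10 endothelial and all 5 tested red blood cell genes, and of 10 fibroblast markers 3 were higher and 3 lower. Of all genes tested 17.4% were higher and 22.7% lower. The alveolar macrophage, alveolar type 2 and endothelial counts lay near those shares. The ciliated count was 3 without normal replicate 1, 4 without normal replicate 3 and 5 without model replicate 3. The endothelial count was 1 without normal replicate 1 or 3 or model replicate 2, 4 without model replicate 1 and 5 without nanozyme replicate 2. The part of these shifts in the results below was not tested, and in whole lung more cells of a type and more RNA per cell cannot be told apart.

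In model lung the 10 genes went both ways, as did all genes tested. The cystine transporter Slc7a11, the reductase Gsr and the breakdown enzyme Ggt1 rose, whereas the synthesis genes Gclc and Gss and the lipid peroxide reductase Gpx4 fell. Thus 6 of 10 genes passed, 3 higher and 3 lower, beside 40.1% of all genes tested (17.4% higher and 22.7% lower). At 7 of 10 genes the model and normal libraries did not overlap, beside 58.5% of all genes. Without any 1 normal library, or without model replicate 1 or 3, the count of lower genes was 1. The median change of the 10 was -0.25, and that of all genes tested was -0.12. Slc7a11 and Ggt1 entered the test through model and nanozyme libraries alone, since both were below 1 FPKM in every normal library. In the comparison of nanozyme with model lung 0 of 10 genes passed, as did 0% of all genes, and in that of nanozyme with normal lung Ggt1 was higher and Gclc lower, 2 of 10 beside 13.9%. That count was 0 without any 1 normal library or model replicate 1, and 1 without nanozyme replicate 1 or 3. Without nanozyme replicate 2 it was again 1 higher and 1 lower, beside 9.31% and 4.26% of all genes. Nanozyme and normal libraries did not overlap at 7 of 10 genes, beside 42.9% of all genes.

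**Figure D1:**
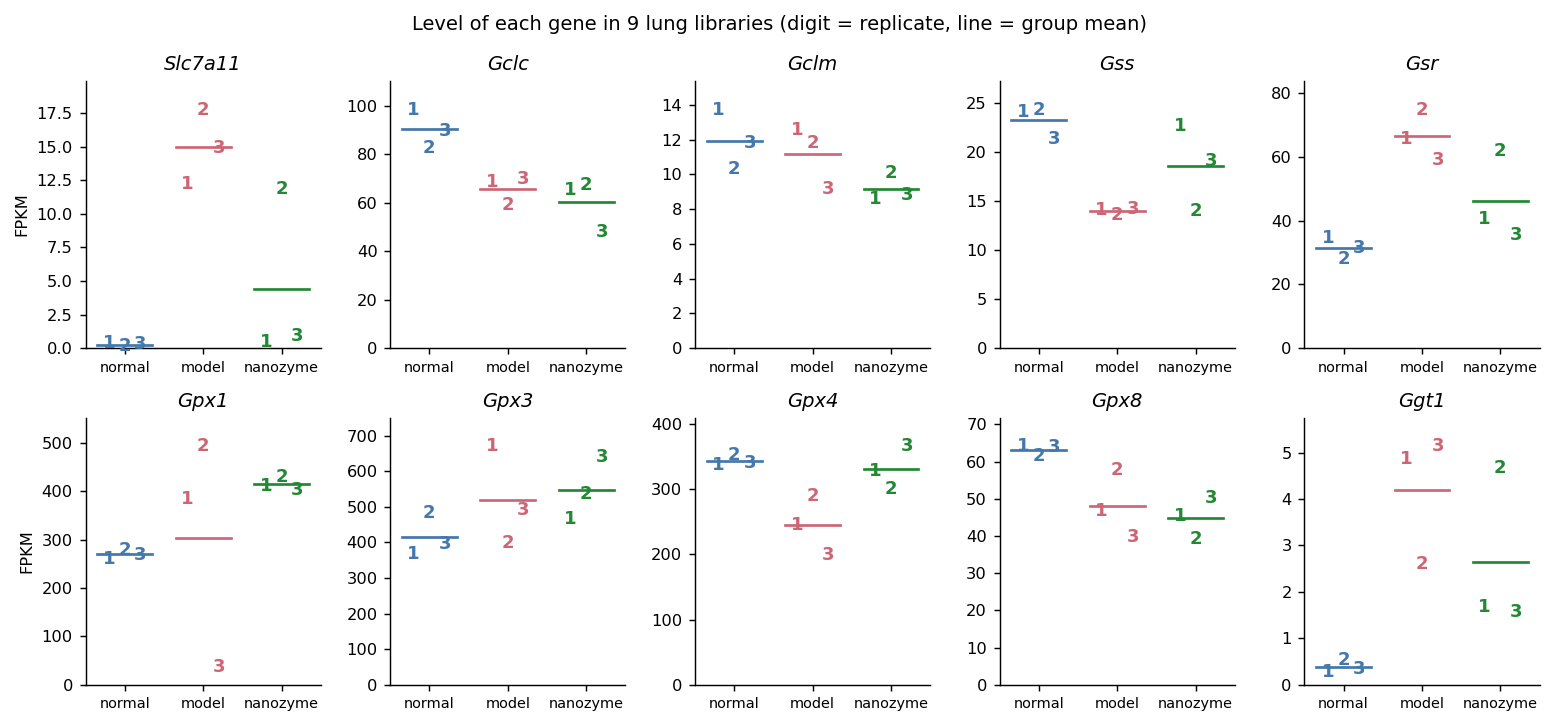
FPKM of the 10 glutathione genes (vertical axis, from 0) in normal, model and nanozyme lung (horizontal axis). Each digit is the replicate number of 1 library and each line a group mean. Nanozyme replicate 2 lies among or next to the model libraries for Slc7a11, Gss, Gsr and Ggt1, and model replicate 3 lies at 36.1 FPKM for Gpx1.

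Slc7a11 encodes the light chain of system xc-, which brings cystine into the cell in exchange for glutamate. It lies on chromosome 3 from 49892526 to 50443614 on the minus strand (ENSMUSG00000027737.10, protein-coding, GENCODE vM21 on GRCm38). Its level was 0.360, 0.169 and 0.274 FPKM in normal replicates 1 to 3, 12.3, 17.8 and 14.9 in the model replicates, and 0.436, 11.8 and 0.919 in the nanozyme replicates. Nanozyme replicate 2 was close to the model libraries, and the other nanozyme libraries lay just above the normal ones. The model mean was 55.9 times the normal mean, and the change was 3.64 ± 0.70 (adjusted p = 0.00499). It passed in all 20 alternative analyses, with changes from 3.52 to 5.37. Nanozyme and model libraries did not overlap, yet the difference of -2.27 ± 0.70 did not pass (adjusted p = 0.182). Without nanozyme replicate 2 it was -3.25 ± 0.19 (adjusted p = 0.000239). Against normal lung the nanozyme difference was 1.38 ± 0.70 (adjusted p = 0.223), and 0.39 ± 0.19 without nanozyme replicate 2 (adjusted p = 0.232).

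The partner of this transporter, Slc3a2, the heavy chain that carries several amino acid transporters to the surface, was the more abundant transcript in all 9 libraries. It stood at 77.9, 102 and 96.9 FPKM in normal lung, 129, 115 and 112 in model lung, and 80.8, 117 and 73.0 in nanozyme lung. The model libraries lay above the normal ones, but the change of 0.37 ± 0.18 did not pass (adjusted p = 0.143). The ratio of Slc3a2 to Slc7a11 was 391 ± 196 in normal and 8.17 ± 2.10 in model lung, with 185, 9.84 and 79.4 in nanozyme replicates 1 to 3. In normal lung and in nanozyme replicates 1 and 3 it divides by Slc7a11 levels below 1 FPKM, so its size there is uncertain.

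Promoter windows were read for these genes because Slc7a11 and Gclm are textbook targets of stress-responsive transcription factors: ATF4 binds the C/EBP-ATF element, and NRF2 binds the antioxidant response element. RefSeq windows on GRCm38.p6 covering the 250 bases before each start annotated there matched 8 of 10 genes, with 14 windows in all. Gclc and Gsr had none. Both strands were searched for TGATGNAA, the C/EBP-ATF element, and TGACNNNGC, the antioxidant response element, which did not overlap each other in any window shown. The Slc7a11 window held 2 matches to the first, on opposite strands, a motif found in 3.45% of 32851 windows. The Gclm window held 1 match to the second on the opposite strand, a motif found in 10.2% of windows, and 2 of the 4 Ggt1 windows held 1 each. Windows of Gss, Gpx1, Gpx3, Gpx4 and Gpx8 held these letters for neither motif. The starts used differ from the ends of some GENCODE gene spans given here. Windows of Gpx3 and Ggt1, and those of Gpx4 after its first, lay inside the span, and those of Gpx1 and Gpx8 ran into it. Their letters do not describe all bases before the span. The stretches below run 5′ to 3′ along the gene, with the matches in capitals, from chr3:50443633-50443699 (minus strand, 86 to 20 bases before the Slc7a11 start) and chr3:122245403-122245451 (plus strand, 154 to 106 bases before the Gclm start).
Slc7a11: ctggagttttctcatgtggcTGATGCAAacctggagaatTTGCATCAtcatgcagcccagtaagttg
Gclm: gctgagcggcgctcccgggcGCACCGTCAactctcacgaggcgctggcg
These matches are a description of letters and not of bound sites. Slc7a11 and Ggt1 rose in model lung and Gclm did not pass. Any link between these letters and the changes was not tested.

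Gclc encodes the catalytic subunit of glutamate-cysteine ligase, the rate-limiting enzyme of glutathione synthesis. It lies on chromosome 9 from 77754535 to 77794485 on the plus strand. Its level was 98.4, 82.5 and 89.8 FPKM in normal lung, 68.4, 58.9 and 69.9 in model lung, and 65.4, 67.3 and 48.0 in nanozyme lung. All 6 libraries of the model and nanozyme groups lay below the lowest normal library. The change was -0.45 ± 0.15 in model lung (adjusted p = 0.0402) and -0.59 ± 0.15 in nanozyme lung against normal (adjusted p = 0.0345). Both calls were near the threshold: each was lost in 10 of 20 alternatives, while the direction held in each. In the model comparison it was lost without any 1 of the normal or model libraries, and with median-of-ratios scaling it was -0.31 (adjusted p = 0.1503). In the nanozyme comparison it was lost without any 1 normal library, without model replicate 1 and without nanozyme replicate 1 or 3. Nanozyme and model lung overlapped and differed by -0.14 ± 0.15 (adjusted p = 0.603).

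Gclm encodes the modifier subunit of the same ligase, which raises its affinity for glutamate. The gene lies on chromosome 3 from 122245557 to 122270732 on the plus strand. The libraries stood at 13.7, 10.3 and 11.8 FPKM in normal lung, 12.6, 11.8 and 9.15 in model lung, and 8.60, 10.1 and 8.80 in nanozyme lung. Normal and model libraries overlapped (-0.091 ± 0.15, adjusted p = 0.646), and this sign turned with median-of-ratios scaling and without normal replicate 1 or model replicate 3. All nanozyme libraries lay below the lowest normal library, a difference of -0.34 ± 0.15 that did not pass (adjusted p = 0.155). Transcript of the catalytic subunit exceeded that of the modifier subunit everywhere, with a ratio of Gclc to Gclm of 7.60 ± 0.415 in normal, 6.02 ± 1.41 in model and 6.58 ± 1.07 in nanozyme lung. These ratios overlapped between all groups.

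Gss encodes glutathione synthetase, which adds glycine in the last step. It lies on chromosome 2 from 155563181 to 155592810 on the minus strand. Its level was 24.1, 24.3 and 21.3 FPKM in normal lung, 14.04, 13.6 and 14.2 in model lung, and 22.7, 13.96 and 19.0 in nanozyme lung. The model libraries differed among themselves by little (SD 0.322), nanozyme replicate 2 fell among them, and nanozyme replicate 1 fell within the normal range. The model change was -0.70 ± 0.16 (adjusted p = 0.00999), and it passed in all 20 alternatives, with changes from -0.82 to -0.56. Nanozyme against model lung gave 0.36 ± 0.16 (adjusted p = 0.226), and 0.54 ± 0.11 without nanozyme replicate 2 (adjusted p = 0.0129). Gss overlaps Acss2, an acetyl-CoA synthetase gene on the opposite strand, and whether counting used strand is not given in the sources used here. Acss2 stood at 19.9 ± 1.03 FPKM in normal and 7.29 ± 1.43 in model lung, so the Gss value is uncertain to the extent that reads are shared.

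Gsr encodes glutathione reductase, which regenerates reduced glutathione with NADPH. It lies on chromosome 8 from 33652523 to 33698163 on the plus strand. Its level was 34.7, 28.0 and 31.4 FPKM in normal lung, 65.6, 74.8 and 59.0 in model lung, and 40.5, 61.9 and 35.6 in nanozyme lung. Each nanozyme library lay above the normal range, and nanozyme replicate 2 lay within the model range. The model mean was 2.12 times the normal mean (1.06 ± 0.20, adjusted p = 0.00471), and the change passed in all 20 alternatives, with changes from 0.93 to 1.203. Nanozyme lung differed from model lung by -0.55 ± 0.20 (adjusted p = 0.186), and by -0.78 ± 0.14 without nanozyme replicate 2 (adjusted p = 0.00742). Against normal lung the nanozyme difference did not pass (0.50 ± 0.20, adjusted p = 0.128). With Gsr higher and Gss lower, the ratio of Gsr to Gss was 1.36 ± 0.178 in normal and 4.78 ± 0.686 in model lung, and 1.79, 4.43 and 1.87 in nanozyme replicates 1 to 3.

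**Figure D2:**
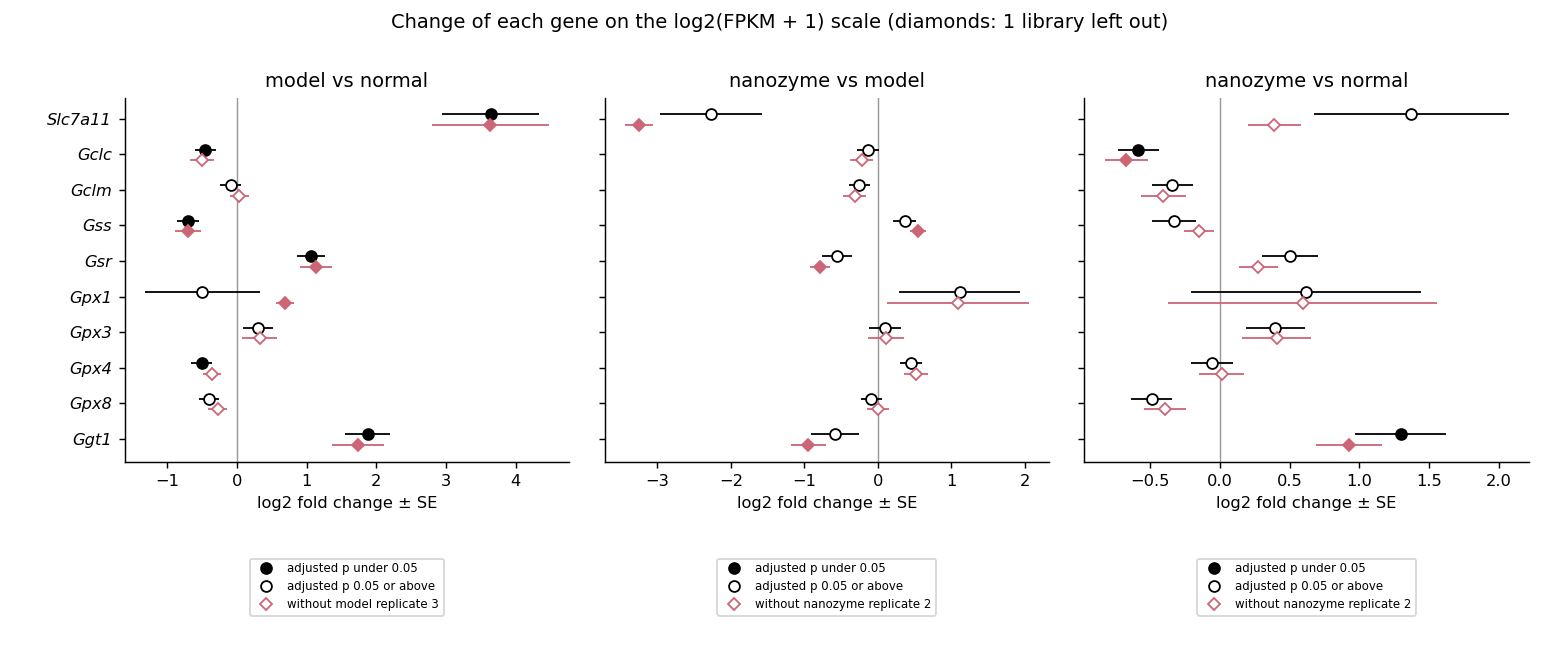
Change of each gene with its SE (horizontal axis, log2 scale) in the 3 comparisons. Filled symbols passed at an adjusted p under 0.05 and open ones did not. Circles use all 9 libraries, and diamonds leave out model replicate 3 (left panel) or nanozyme replicate 2 (middle and right panels), filled by the same rule. Without nanozyme replicate 2, Slc7a11, Gss, Gsr and Ggt1 passed against the model, and without model replicate 3, Gpx1 rose by 0.69 against normal.

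Gpx1, Gpx3 and Gpx4 had the highest mean levels of the 10 genes in each group, while Gpx8 ranked below Gclc. Gpx1, Gpx3 and Gpx4 are selenoproteins, with selenocysteine at the active site, while Gpx8 carries cysteine there and sits in the endoplasmic reticulum. In normal lung Gpx3 (415 ± 59.5 FPKM), Gpx4 (343 ± 8.18) and Gpx1 (269 ± 9.74) exceeded 99.3%, 99.1% and 98.8% of the genes tested. They were followed by Gclc, Gpx8, Gsr, Gss and Gclm, and in this order no neighbours overlapped between libraries down to Gclm. Ggt1 (0.383 ± 0.132) and Slc7a11 (0.268 ± 0.0956) came last and overlapped. In model lung Slc7a11 (14.97 ± 2.75) had moved to the level of Gss (13.9 ± 0.322), which it overlapped, and Gsr (66.5 ± 7.98) to that of Gclc (65.7 ± 5.93). In nanozyme lung Gpx3, Gpx1 and Gpx4 led without overlap, at 548 ± 86.9, 414 ± 13.8 and 331 ± 32.8 FPKM.

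Gpx1, the cytosolic and mitochondrial enzyme that reduces hydrogen peroxide, lies on chromosome 9 from 108338903 to 108340343 on the plus strand. Its level was 260, 279 and 269 FPKM in normal lung, 384, 493 and 36.1 in model lung, and 411, 429 and 402 in nanozyme lung. Model replicate 3 lay far below every other library, and the other model libraries lay above every normal one. Gpx1 in model replicate 3 was 0.139 times the lowest of the other 8 libraries. Among 376 genes with at least 100 FPKM in those 8 libraries it was the only one under 0.2 times their lowest value, and 0 genes met this rule in any other library. Rhoa, which ends 969 bases before Gpx1 starts, stood at 258, 288 and 259 FPKM in the model libraries. With model replicate 3 the change against normal was -0.50 ± 0.82 (adjusted p = 0.655), and without it 0.69 ± 0.13 (adjusted p = 0.0117). By means of FPKM with all libraries, model lung was instead 1.13 times normal lung (304 against 269). The direction of Gpx1 in model lung thus rests on this 1 library and, when it is kept, on the scale. Nanozyme against model lung gave 1.11 ± 0.82 (adjusted p = 0.436), or -0.071 ± 0.13 without model replicate 3 (adjusted p = 0.783).

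The nanozyme libraries were close together at Gpx1, and all lay above the normal range, with a mean 1.54 times the normal mean. In the fit of all 9 libraries this difference of 0.62 ± 0.82 did not pass (adjusted p = 0.659), a fit in which model replicate 3 enters the shared estimate of spread. It passed with only the 2 groups compared (0.62 ± 0.08, adjusted p = 0.00984) and without model replicate 3 (0.62 ± 0.12, adjusted p = 0.0176). Without model replicate 3, 4 of 10 genes passed in nanozyme against normal lung, 2 higher and 2 lower, beside 13.7% of all genes (7.85% higher and 5.9% lower). In model against normal lung 5 of 10 then passed, 4 higher and 1 lower, beside 32.7% (15% higher and 17.7% lower).

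Gpx3 encodes the secreted peroxidase found in plasma and airway lining fluid and lies on chromosome 11 from 54902453 to 54910377. It stood at 368, 482 and 395 FPKM in normal lung, 670, 398 and 491 in model lung, and 467, 537 and 640 in nanozyme lung. Libraries of all groups overlapped. It did not pass in model lung (0.30 ± 0.21, adjusted p = 0.289) or in nanozyme lung against normal (0.40 ± 0.21, adjusted p = 0.250).

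Gpx4 reduces lipid hydroperoxides within membranes and is known as the main guard against ferroptosis, an iron-dependent form of cell death. The gene lies on chromosome 10 from 80047166 to 80056439. It stood at 337, 352 and 340 FPKM in normal lung, 245, 290 and 199 in model lung, and 328, 300 and 365 in nanozyme lung. The model libraries lay below all others, and the nanozyme libraries overlapped the normal ones. The model change was -0.50 ± 0.15 (adjusted p = 0.0286), and it was lost in 8 of 20 alternatives, among them median-of-ratios scaling (-0.36, adjusted p = 0.120), the fit without any 1 normal library and the fits without model replicate 1 or 3. Nanozyme against model lung gave 0.45 ± 0.15, which did not pass (adjusted p = 0.182). The nanozyme and normal groups differed by -0.056 ± 0.15 (adjusted p = 0.844). GENCODE also lists a pseudogene of this gene, Gpx4-ps2, with which reads could be shared.

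Gpx8, which acts on peroxide in the endoplasmic reticulum, lies on chromosome 13 from 113042753 to 113046410 and overlaps Cdc20b on the opposite strand. It stood at 64.1, 61.4 and 63.9 FPKM in normal lung, 46.7, 57.9 and 39.8 in model lung, and 45.5, 39.1 and 50.1 in nanozyme lung. All 6 model and nanozyme libraries lay below the normal range. Neither the model difference (-0.40 ± 0.15, adjusted p = 0.0590) nor the nanozyme difference from normal (-0.49 ± 0.15, adjusted p = 0.0602) passed. They passed in 5 and 6 of 20 alternatives, respectively, and the direction held in each.

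**Figure D3:**
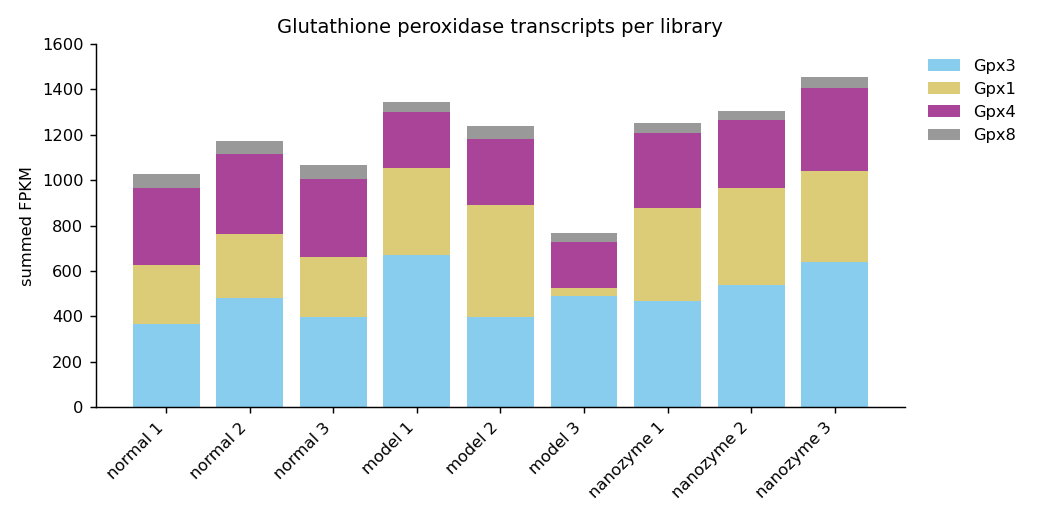
Summed FPKM of the 4 peroxidase genes (vertical axis) in each of 9 libraries (horizontal axis), with colours for Gpx3, Gpx1, Gpx4 and Gpx8. The sum lies between 1029 and 1175 in normal lung and between 1252 and 1457 in nanozyme lung, and model replicate 3 stands at 765, where the Gpx1 part is 4.72%.

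Summed over Gpx1, Gpx3, Gpx4 and Gpx8, transcript reached 1090 ± 75.7 FPKM in normal, 1116 ± 309 in model and 1338 ± 106 in nanozyme lung. Each nanozyme library lay above the normal range, as did model replicates 1 and 2 (1346 and 1238 FPKM), while model replicate 3 lay below it (765). Without model replicate 3 the model sum was 1292 ± 76.1 FPKM (SD, n = 2). The share of Gpx4 in this sum was 31.5% ± 1.41 in normal lung, 22.5% ± 3.93 in model lung and 24.8% ± 1.64 in nanozyme lung, and the normal range did not overlap the others. Shares of Gpx3 ran from 35.7% to 41.0% in normal, from 32.1% to 64.1% in model and from 37.3% to 43.9% in nanozyme lung.

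Ggt1 encodes gamma-glutamyltransferase, a surface enzyme that splits glutathione so that its amino acids can be taken up again. It lies on chromosome 10 from 75561604 to 75586200 on the plus strand. Its level was 0.272, 0.530 and 0.348 FPKM in normal lung, 4.86, 2.601 and 5.13 in model lung, and 1.67, 4.67 and 1.57 in nanozyme lung. All 6 model and nanozyme libraries lay above the normal range, and nanozyme replicate 2 lay within the model range. The model mean was 10.96 times the normal mean (1.88 ± 0.33, adjusted p = 0.00357), and the change passed in all 19 alternatives in which it was tested. Against normal lung the nanozyme mean was 6.89 times the normal mean (1.30 ± 0.33, adjusted p = 0.0342), and 4.23 times without nanozyme replicate 2 (0.93 ± 0.24, adjusted p = 0.0410). The call from all libraries was lost in 7 of 19 alternatives, among them the fits without any 1 normal library or model replicate 1. Nanozyme against model lung gave -0.58 ± 0.33 (adjusted p = 0.319), and -0.95 ± 0.24 without nanozyme replicate 2 (adjusted p = 0.0274).

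In the comparison of nanozyme with model lung, the differences of Slc7a11, Gss, Gsr and Gpx4 had an unadjusted p under 0.05, 4 of 10 beside 22.1% of all genes, and none passed after adjustment by limma. Groups did not overlap at Slc7a11 and Gpx4, 2 of 10 beside 16.4% of all genes. Without nanozyme replicate 2, 4 of 10 passed, with Gss higher and Slc7a11, Gsr and Ggt1 lower, beside 22.1% of all genes (12.5% higher and 9.64% lower). That library was singled out because it resembled the model, so these calls are no independent support for a difference. The nanozyme libraries also differed in which group mean they were nearer to on the log2 scale, as a description. Replicate 1 was nearer to the normal mean at 5 of 10 genes, replicate 2 at 2 and replicate 3 at 6, beside 54.3%, 22.8% and 56.7% of all genes tested. Gpx1 was among them in each replicate, although its nanozyme values lay above every normal library, because model replicate 3 lowers the model mean. Without model replicate 3 the counts were 5, 1 and 5 of 10, beside 55.5%, 23.9% and 57.6% of all genes, and Gpx1 was no longer among them. Gclm then entered in each replicate and was the only gene of replicate 2. Its nanozyme values lay below every normal library, and it entered because the model mean then lay above the normal mean (12.2 and 11.9 FPKM). Slc7a11, Gss, Gsr and Gpx4 were nearer to the normal mean in replicates 1 and 3 in both cases. 

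Genes with the most similar profiles over the 9 libraries were found by the root mean square difference of centred log2(FPKM + 1) values among 14138 named genes. Nearest to Slc7a11 were Irgm1 and Batf2, both known as interferon-induced, and Ifi205 (differences of 0.18, 0.19 and 0.20). Irgm1 stood at 14.4, 11.2 and 14.1 FPKM in normal, 142, 234 and 220 in model and 16.2, 191 and 27.4 in nanozyme lung, high in the same 4 libraries as Slc7a11. Nearest to Gsr were Frrs1, Mfsd1 and Igsf8 (0.06, 0.09 and 0.09), nearest to Gss were Lgalsl, Dcaf6 and Yae1d1 (each 0.08), and nearest to Ggt1 were Csf1, the macrophage growth factor gene, Slc16a6 and Mmp25 (0.12, 0.16 and 0.18). Nearest to Gclc were Dhh, Hipk1 and Lrrc27 (0.09, 0.10 and 0.11), and nearest to Gpx3 were Usp35, Aph1a and Map1s (0.11, 0.12 and 0.12). No gene came close to Gpx1: the nearest, Acaa1b, differed by 0.40 and was at 0.372 FPKM in model replicate 3 against 13.5 to 17.6 in the other libraries. The 9 libraries share their groups, so many genes with a group difference resemble each other.

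Other genes of the pathway were grouped in lists set by function. In model lung some lists held both higher and lower genes, while others held only higher genes or none that passed. The background shares were 17.4% higher and 22.7% lower. Among genes that supply NADPH to glutathione reductase, 3 of 8 rose and 2 fell. G6pdx, the entry enzyme of the pentose phosphate pathway, rose from 15.9 to 41.5 FPKM by means (1.33 ± 0.15, adjusted p = 0.000681) and Pgd, which follows it, from 67.2 to 126 (0.89 ± 0.18, adjusted p = 0.00573). Malic enzyme Me1 fell (-0.90 ± 0.20, adjusted p = 0.00929). Of the glutaredoxins and glyoxalases 2 of 7 rose and 2 fell. The glutaredoxin gene Glrx, which removes glutathione from proteins, rose from 23.8 to 97.4 FPKM (1.94 ± 0.30, adjusted p = 0.00231). The lower count of this list was 0 without normal replicate 1 or 2 and 1 without normal replicate 3.

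In breakdown and salvage of glutathione 5 of 10 tested genes rose and 1 fell. The higher ones included the dipeptidase Dpep2 (1.09 ± 0.15, adjusted p = 0.00152), the aminopeptidase Anpep (0.88 ± 0.20, adjusted p = 0.00928) and Ggct, gamma-glutamylcyclotransferase (1.38 ± 0.32, adjusted p = 0.0103). Dpep1, by means the more abundant dipeptidase transcript, went the other way. It stood at 53.0 ± 5.91 FPKM in normal and 17.4 ± 9.92 in model lung, against means of 5.08 and 12.1 for Dpep2. The higher count was 3 without normal replicate 2 or 3 and without model replicate 2 or 3. The lower count was 0 without normal replicate 2 or 3 and 2 without model replicate 1 or nanozyme replicate 2. In cysteine supply and glutathione transport 2 of 11 rose and 3 fell. The amino acid transporters Slc1a4 (-1.29 ± 0.16, adjusted p = 0.000939) and Slc1a1 (-0.63 ± 0.09, adjusted p = 0.00191) and the transsulfuration enzyme Cbs (-1.66 ± 0.24, adjusted p = 0.00170) were the lower ones. The number of higher genes in this list was 0 without normal replicate 2 or 3 and without model replicate 1 or 3, and 1 without normal replicate 1, model replicate 2 or nanozyme replicate 3. The other peroxidases Gpx2 (-0.83 ± 0.57, adjusted p = 0.268) and Gpx7 (0.095 ± 0.097, adjusted p = 0.459) did not pass, and Gpx5 and Gpx6 were below 1 FPKM in all libraries and not tested. Without model replicate 2, 1 of these genes was lower.

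**Figure D4:**
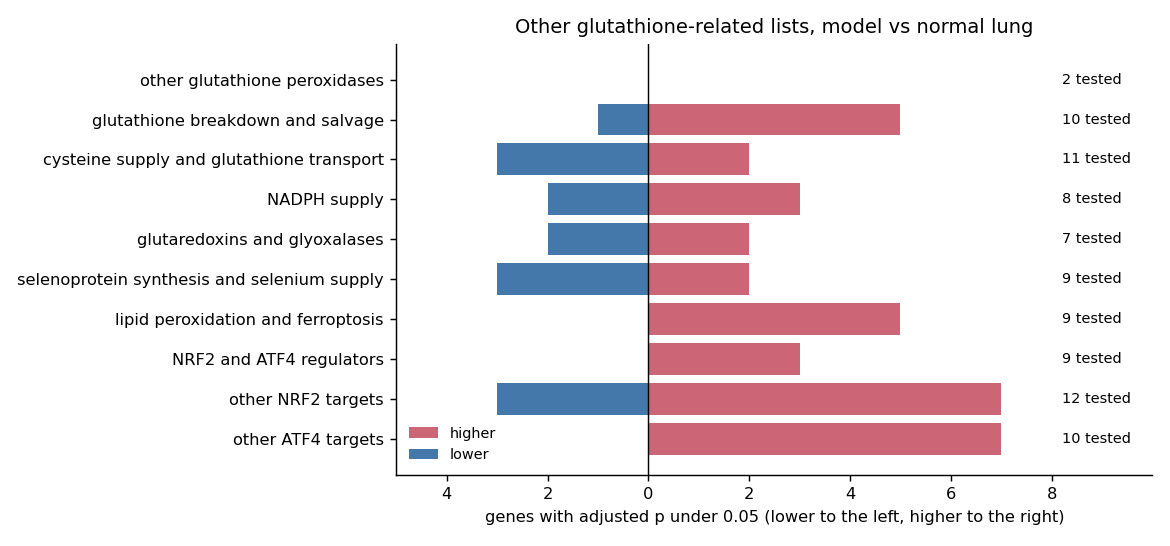
Number of genes that passed in model against normal lung (horizontal axis, lower to the left and higher to the right of 0) in each list of other glutathione-related genes (vertical axis), with the number tested at the right. NRF2 targets had 7 higher and 3 lower of 12 tested, and ATF4 targets 7 higher and 0 lower of 10. Of all genes tested 17.4% were higher and 22.7% lower. Lists differ in length, so the counts are not shares.

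Selenoprotein synthesis and selenium supply had 2 of 9 genes higher and 3 lower. Sephs2, which makes the selenium donor for selenocysteine, rose from 14.1 to 33.1 FPKM (1.17 ± 0.21, adjusted p = 0.00382), and the selenocysteine lyase gene Scly rose as well (0.84 ± 0.17, adjusted p = 0.00604), while Pstk, a kinase of the same pathway, fell (-0.57 ± 0.13, adjusted p = 0.00960). The lower count was 1 without normal replicate 1 or 3 or model replicate 2. Of the lipid peroxidation and ferroptosis genes 5 of 9 rose and 0 fell. Among them were Aifm2, which restrains ferroptosis (0.88 ± 0.11, adjusted p = 0.000920), the lipoxygenase Alox5 (0.86 ± 0.13, adjusted p = 0.00190) and Ptgs2, an inflammatory cyclooxygenase (1.49 ± 0.43, adjusted p = 0.0256). This count was 2 without any 1 normal library or model replicate 3, and 3 without model replicate 1 or 2.

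Among the other NRF2 targets 7 of 12 rose and 3 fell. Haem oxygenase Hmox1 (2.79 ± 0.36, adjusted p = 0.00110) and ferritin heavy chain Fth1 (2.07 ± 0.39, adjusted p = 0.00490) were higher, and Aox1 was lower (-1.74 ± 0.28, adjusted p = 0.00269). Of the other ATF4 targets 7 of 10 rose and 0 fell, among them the serine synthesis genes Psat1 (1.16 ± 0.13, adjusted p = 0.000570) and Phgdh (0.95 ± 0.15, adjusted p = 0.00224) and the amino acid transporter Slc7a5 (1.17 ± 0.14, adjusted p = 0.000913). Among the regulators themselves 3 of 9 rose: the repressor Bach1 (0.56 ± 0.15, adjusted p = 0.0195), Sqstm1 (0.51 ± 0.14, adjusted p = 0.0205) and Mafg (0.38 ± 0.12, adjusted p = 0.0366). This count was 0 without any 1 normal library, 2 without model replicate 1 and 1 without model replicate 2. Transcript of Atf4 stood at 106 FPKM in normal and 108 in model lung by means (0.025 ± 0.16, adjusted p = 0.917), and that of Nfe2l2, which encodes NRF2, did not pass (0.30 ± 0.17, adjusted p = 0.176).

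In nanozyme against normal lung, with background shares of 8.39% higher and 5.5% lower, these lists also held genes that passed. The ATF4 targets had 4 of 10 higher, including Phgdh (1.19 ± 0.15, adjusted p = 0.00196), Slc7a5 (0.96 ± 0.14, adjusted p = 0.00436) and Psat1 (0.82 ± 0.13, adjusted p = 0.00495). Alox5 (1.33 ± 0.13, adjusted p = 0.000793) was 1 of 2 higher among 9 ferroptosis genes. G6pdx (0.92 ± 0.15, adjusted p = 0.00677) was the only higher one of 8 NADPH genes. Dpep2 (0.99 ± 0.15, adjusted p = 0.00490) was the only one of 10 tested breakdown genes, and Hmox1 (1.37 ± 0.36, adjusted p = 0.0384) the only one of 12 NRF2 targets. The counts of the NADPH, breakdown and NRF2 lists lay near the share of all genes. No NRF2 target was higher without any 1 normal library, model replicate 1 or 3 or nanozyme replicate 1. Slc1a1 (-0.52 ± 0.09, adjusted p = 0.00971), Slc1a4 (-0.83 ± 0.16, adjusted p = 0.0130) and Cbs (-1.20 ± 0.24, adjusted p = 0.0141) were lower, and this count was 0 without normal replicate 3. The ferroptosis list had 2 higher genes, and 1 without any 1 normal library. Without nanozyme replicate 1 the NADPH and NRF2 target lists each had 1 lower gene, and without nanozyme replicate 3 the selenoprotein list had 1 higher. In nanozyme against model lung 0 genes of these lists passed by limma. When nanozyme replicate 2 was left out, 2 NRF2 targets were higher and 6 lower in that comparison, of 12, and 0 ATF4 targets were higher and 4 lower, of 10. Of the breakdown genes 2 were then higher and 3 lower, of 10, and of the selenoprotein genes 3 and 2, of 9. In that fit 12.5% of all genes were higher and 9.64% lower.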

How the data were processed

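RNA was sequenced from whole lung of 9 mice, 3 per group. HISAT2 and the build GRCm38 are named per the submitters' processing notes, and the authors deposited 1 table of FPKM values with 1 column per library. The annotation, counting tool, strand setting and filters are not given in the sources used here, and no read counts were used, so depth and counting error are unknown. Genes with FPKM of at least 1 in at least 3 of 9 libraries (14540 of 25526) were tested on log2(FPKM + 1) with limma 3.58.1 (R 4.3.3), with 1 coefficient per group, all 9 libraries in 1 fit, and an intensity trend. The two-sided p-values of each of the 3 comparisons were adjusted separately by the Benjamini-Hochberg method and read against 0.05. The fit was also run on simulated data with independent normal noise. That simulation held no deviating library, so it does not bear on results that rest on the libraries singled out above. An exact permutation test of 3 against 3 mice cannot go below 0.1 and was not run. Gene coordinates come from GENCODE vM21 and promoters from RefSeq on GRCm38.p6. Figures used matplotlib 3.10.9 and Python 3.11.15.

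The 10 genes and all lists were chosen with earlier results of these data known. Named besides the 10 were, per list and comparison, up to 3 genes that passed with the smallest adjusted p, or the 2 most abundant where 0 passed, and 3 genes of nearest profile for members whose SD over the libraries was at least 0.3. Slc3a2, Atf4, Nfe2l2, Rhoa, Acss2, Dpep1, Ly6g, Ltf and the abundant markers Lcn2, Lyz2, Scgb1a1, Sftpc and Inmt were named after their values were seen. Alternatives were a pseudocount of 0.1, no filter, a mean FPKM of at least 5, 4 other scalings, fits of the 2 groups compared, no trend, sample weights, a replicate block and leaving out each library in turn.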

Additional observations from a re-analysis of the deposited data

How the results depend on the processing

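The calls of Slc7a11, Gss, Gsr and Ggt1 in model against normal lung held in all alternatives in which they were tested, and Ggt1 was not tested at a mean FPKM of at least 5. The number of genes that passed in that comparison was 5824, and 3836 to 6590 when 1 library was left out, with 3836 without normal replicate 3; of the 10 glutathione genes 4 to 7 passed. In nanozyme against model lung the count of 0 became 9 with no filter and 3034 with sample weights, whose estimation stopped short of its tolerance, and ran from 0 to 3216 without 1 library (3216 without nanozyme replicate 2, and at most 2 without any other). Of the 10 genes 5 passed there with sample weights, and 0 to 4 when 1 library was left out. In nanozyme against normal lung 2020 genes passed, 1285 at a mean FPKM of at least 5, 5745 with sample weights and 748 to 2258 without 1 library (795 without normal replicate 1 and 748 without normal replicate 3). Of the 10 genes 0 passed there with no filter or a replicate block, 1 at a mean FPKM of at least 5 or with equal column sums, 5 with sample weights and 0 to 4 without 1 library. Correlations of deviations from group means ran from -0.33 to 0.23 between same-numbered libraries and from -0.36 to 0.38 between the others. With 3 libraries per group these values cannot decide whether the numbers pair samples. With the replicate block, model against normal lung lost the calls of Gclc (adjusted p = 0.0560) and Gpx4 (0.0536), and nanozyme against normal lung those of Gclc (0.0551) and Ggt1 (0.0656).

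The median over all genes in model against normal lung shifted by 0.13 with median-of-ratios scaling and by -0.11 when the 100 most abundant genes were left out of the scaling, and in nanozyme against model lung by -0.10 with the former. The higher share of calls in the first went from 43.4% to 55.3%, to 32.9% and, with equal column sums, to 54.2%. In nanozyme against normal lung it went from 60.4% to 70.4% with equal column sums, 46.8% with quantile normalization and 47.3% without the 100 most abundant genes. Signs turned for Gclm, Gclc, Gpx1, Gpx3, Gpx4 and Gpx8. In model against normal lung Gclm was 0.045 with median-of-ratios scaling and ran from -0.18 to 0.035 without 1 library, and Gpx1 ran from -1.18 to 0.69, the last without model replicate 3. In nanozyme against model lung Gpx3 was -0.022 with median-of-ratios scaling and Gpx8 0.083 with sample weights. Without 1 library Gclc ran there from -0.22 to 0.017, Gpx1 from -0.071 to 1.80, Gpx3 from -0.078 to 0.30 and Gpx8 from -0.21 to 0.050. In nanozyme against normal lung Gpx4 was 0.0099 with equal column sums, 0.042 with sample weights and from -0.13 to 0.013 without 1 library. The cause of these changes was not tested. No value has a known depth, so low levels such as Slc7a11 and Ggt1 in normal lung carry an unknown counting error.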
